A study of Mus musculus with 2 samples.

Results

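The 10 genes described here act in the handling of fatty acids by the endothelium, the cell layer that lines blood vessels: Cd36, Lpl, Gpihbp1, Fabp4, Fabp5, Aqp7, C1qtnf9, Pparg, Angptl4 and Meox2. They were chosen by symbol, each matched exactly 1 row of both count matrices, and they are 10 of the 28625 gene symbols in the files. Their levels were compared between 1 library of injured and 1 library of uninjured mouse tibialis anterior, a muscle of the lower leg, in every cell class that marker genes defined. The injured muscle was taken 24 hours after an injection of 1.2% BaCl (barium chloride, which kills muscle fibres). Both libraries came from C57B/6 mice aged 12 weeks on standard chow, and their cells were freed with a muscle protease digestion. The label of the injection stands on both samples, so it is unknown here whether the uninjured muscle was injected with anything. The number of animals per library is not stated either.

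Muscle burns fatty acids that arrive in the blood as triglycerides in lipoproteins or bound to albumin. Lipoprotein lipase (Lpl) is secreted by cells of the tissue, carried across the capillary wall and anchored on its inner face by Gpihbp1, where it frees fatty acids, and Angptl4 blocks it. Cd36 takes the fatty acids up, Fabp4 and Fabp5 carry them through the cell, Aqp7 passes glycerol, and the transcription factors Pparg and Meox2 are known in mice to drive such genes in the endothelium of heart and muscle. C1qtnf9 is a secreted relative of adiponectin that vessels make.

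After filtering, 4260 injured cells (36692627 UMIs, unique molecular identifiers, each standing for 1 captured transcript; median 7268 per cell) and 5139 uninjured cells (20492665 UMIs, median 3156) remained. Endothelial-like cells numbered 464 in the injured library, with 3808678 UMIs, and 2655 in the uninjured library, with 9142150 UMIs. All 10 endothelial naming markers were detected in both, and Pecam1, an adhesion molecule of the endothelium, had 788 CPM (UMIs per 1000000 UMIs of the class in that library) in injured and 1002 CPM in uninjured endothelial-like cells. Different clusters held the class: 395 of the injured cells lay in cluster 11, which Apln and Pgf led and which held 12 uninjured cells, and the uninjured cells lay mainly in clusters 1, 2, 9 and 10. The libraries also differed in sex-linked transcripts, with 0 UMIs of Xist and 4456 of Y-linked genes in the injured library and 16575 and 0 in the uninjured library, so injury, sex and animal cannot be told apart. Of the deposited barcodes, 33 occurred in both libraries, among them 5 injured and 19 uninjured endothelial-like cells. With 1 library per group no difference has a replicate check, no test was possible, and intervals in parentheses are exact, at 95%, and hold counting error alone.

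Promoter sequences are shown for Cd36, Aqp7 and C1qtnf9, the genes with the largest differences in endothelial-like cells, to give the letters around their start sites. They are RefSeq windows of GRCm38.p6 (the mm10 build), each 250 bases before to 50 bases after the start, written 5′ to 3′ on the gene's own strand. The table used held windows for 5 of the 10 genes. Capitals mark a match, on either strand, to AGGTCA, the half-site of the nuclear receptor family that includes Pparg. The windows are chr5:17835847-17836146 on the minus strand for Cd36, chr4:41048087-41048386 on the minus strand for Aqp7 and chr14:60767884-60768183 on the plus strand for C1qtnf9. The Cd36 window surrounds an internal start, since the gene on its strand begins upstream, at chr5:17888801. Which start the cells used was not examined.
Cd36: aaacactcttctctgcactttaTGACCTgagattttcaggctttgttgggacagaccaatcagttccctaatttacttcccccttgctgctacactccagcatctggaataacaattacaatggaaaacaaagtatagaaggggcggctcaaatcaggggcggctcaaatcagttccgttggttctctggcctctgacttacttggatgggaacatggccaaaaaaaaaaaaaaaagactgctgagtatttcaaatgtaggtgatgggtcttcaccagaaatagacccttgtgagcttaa
Aqp7: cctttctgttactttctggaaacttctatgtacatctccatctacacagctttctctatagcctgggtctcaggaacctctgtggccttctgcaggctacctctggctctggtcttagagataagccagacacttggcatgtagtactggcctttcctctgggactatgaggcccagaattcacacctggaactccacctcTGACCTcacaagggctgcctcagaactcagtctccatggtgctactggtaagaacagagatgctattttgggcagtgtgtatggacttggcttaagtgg
C1qtnf9: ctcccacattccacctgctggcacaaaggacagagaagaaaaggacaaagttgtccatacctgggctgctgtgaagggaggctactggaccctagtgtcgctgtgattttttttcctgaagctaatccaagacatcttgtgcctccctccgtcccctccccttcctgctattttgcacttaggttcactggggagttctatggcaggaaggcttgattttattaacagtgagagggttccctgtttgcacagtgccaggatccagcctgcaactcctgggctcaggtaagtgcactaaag
The half-site, read on the strand opposite to the gene, began 228 bases before this Cd36 start and 49 bases before the Aqp7 start shown. It was absent from the C1qtnf9 window. A second Aqp7 window, chr4:41047913-41048212, held 2 matches, 223 and 101 bases before its own start, and the first of these is the one marked above. Of 3 Pparg windows, 2 held a match on the gene's strand, 28 and 9 bases before the start. The same letters occurred in 16.3% of all 32851 promoter windows. Of the full direct repeat AGGTCANAGGTCA, which contains the half-site and which Pparg binds with a retinoid X receptor, 13 of all windows (0.0396%) held a match and none of these was a window of the 10 genes. A match of letters is a description and not a binding site.

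In endothelial-like cells of injured muscle, 9 of the 10 genes were at least 2-fold lower than in those of uninjured muscle, and 1, Angptl4, was at least 2-fold higher. The median log2 ratio of injured over uninjured was -1.80 for the 10 genes and -0.19 for all 11256 genes with at least 20 UMIs in the class, a minimum that all 10 genes passed. Of those 11256 genes, 19.9% were at least 2-fold lower and 10.7% at least 2-fold higher. Together the 10 genes took 0.699% of all UMIs of injured and 2.79% of uninjured endothelial-like cells, and Fabp4 alone made up 72.2% and 74.9% of those UMIs. The calls rest on size alone.

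At the vessel surface, Gpihbp1, the anchor of lipoprotein lipase (ENSMUSG00000022579, chr15:75596628-75599481, plus strand, mm10 coordinates of GENCODE M21 as for all genes here), had 787 CPM (759 to 816) in injured and 1927 CPM (1899 to 1956) in uninjured endothelial-like cells. Its level was 2.45-fold lower (2.36 to 2.55). Lpl itself (ENSMUSG00000015568, chr8:68880491-68907448, plus strand) had 86.4 CPM (77.3 to 96.2) in injured and 460.3 CPM (446 to 474) in uninjured cells and was 5.33-fold lower (4.76 to 5.98). In the whole class the anchor thus differed less between the libraries than the enzyme. Within the capillary-like cells described below this order was not seen. There Gpihbp1 was 1.75-fold lower (1.61 to 1.89) and Lpl 1.55-fold lower (1.33 to 1.81), with overlapping intervals. Angptl4, the lipase inhibitor (ENSMUSG00000002289, chr17:33773750-33781830, minus strand), had 51.2 CPM (44.3 to 58.9) in injured and 17.5 CPM (14.9 to 20.4) in uninjured cells, a ratio of 2.93 (2.36 to 3.63). This was the one gene with a higher level, and its call did not hold in every setting. Its log2 ratio was 1.33 with only cells at least as deep as the shallowest injured cell. As a mean of UMIs per 10000 in each cell it was 1.50. With every cell thinned to 1500 UMIs it was 0.69, under 2-fold. That value comes from a single random draw that was not repeated, and the reason for the difference was not tested. At that depth 3.88% of injured cells (2.32 to 6.06) and 2.30% of uninjured cells (1.76 to 2.94) had an Angptl4 UMI, and these intervals overlap.

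Among the carriers, Cd36, the fatty acid translocase (ENSMUSG00000002944, chr5:17781690-17888801, minus strand), had 259 CPM (243 to 275) in injured and 1753 CPM (1726 to 1781) in uninjured endothelial-like cells, 6.78-fold lower (6.36 to 7.24). Fabp4, which binds fatty acids in the cytosol (ENSMUSG00000062515, chr3:10204088-10208576, minus strand), had 5046 CPM (4975 to 5118) in injured and 20899.9 CPM (20806 to 20994) in uninjured cells, 4.14-fold lower (4.08 to 4.20). Both were lower by over 4-fold. Fabp5, a second carrier encoded near Fabp4 (ENSMUSG00000027533, chr3:10012548-10016607, plus strand), had 474 CPM (453 to 497) in injured and 1108 CPM (1087 to 1130) in uninjured cells, 2.34-fold lower (2.22 to 2.46). Its difference was the smallest among the 9 lower genes, but its interval overlapped those of Gpihbp1, Meox2 and Pparg, so their order is not set. GENCODE M21 also lists a processed pseudogene, Fabp5l2, which was not analysed here, and reads shared with it cannot be told apart.

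The largest differences were those of Aqp7 and C1qtnf9. Aqp7, the glycerol channel (ENSMUSG00000028427, chr4:41033074-41048139, minus strand), had 29.1 CPM (24.0 to 35.1) in injured and 313 CPM (302 to 325) in uninjured endothelial-like cells, 10.7-fold lower (8.89 to 13.1). C1qtnf9 (ENSMUSG00000071347, chr14:60768134-60780869, plus strand) had 121 CPM (110.0 to 132) in injured and 1079 CPM (1057 to 1100.0) in uninjured cells, 8.93-fold lower (8.13 to 9.83). Of the transcription factors, Pparg (ENSMUSG00000000440, chr6:115360951-115490399, plus strand) had 17.6 CPM (13.6 to 22.3) in injured and 51.6 CPM (47.1 to 56.5) in uninjured cells, 2.93-fold lower (2.27 to 3.85), from 67 and 472 UMIs. Meox2 (ENSMUSG00000036144, chr12:37108540-37179534, plus strand) had 116 CPM (105 to 127) in injured and 287 CPM (277 to 299) in uninjured cells, 2.49-fold lower (2.25 to 2.76). In the whole class both regulators thus differed less than Cd36, Lpl, Fabp4, Aqp7 or C1qtnf9, though the Pparg interval reaches 3.85-fold. This order did not hold throughout in the capillary-like cells described below. There Pparg was 2.40-fold lower (1.32 to 4.85), against 1.77-fold for Cd36, 1.55-fold for Lpl and 1.29-fold for Fabp4. Meox2, at 1.39-fold lower, still differed less than Cd36, Lpl, Aqp7 and C1qtnf9 by point value.

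**Figure D1:**
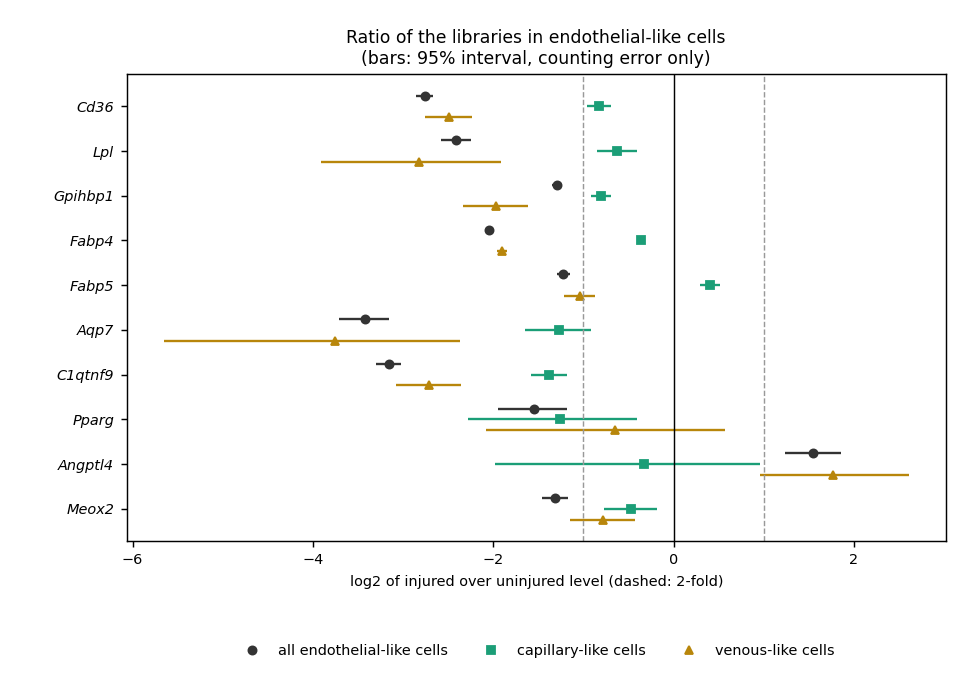
Log2 ratio of injured over uninjured level (x axis) of each gene (y axis) in all endothelial-like cells and in the capillary-like and venous-like cells among them, with 95% intervals for counting error; dashed lines mark 2-fold. In all endothelial-like cells 9 genes lie left of the lower dashed line and Angptl4 right of the upper one, while in capillary-like cells 3 genes lie left of the lower line and none right of the upper one.

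The lower totals came with fewer cells in which a transcript was seen. At 1500 UMIs per cell, a depth that all endothelial-like cells reached, 25.4% of injured cells (21.5 to 29.7) and 88.5% of uninjured cells (87.3 to 89.7) had a Cd36 UMI. For C1qtnf9 the shares were 18.8% (15.3 to 22.6) of injured and 75.1% (73.5 to 76.8) of uninjured cells, and for Aqp7 5.17% (3.34 to 7.60) and 36.7% (34.9 to 38.6). Each of these 3 transcripts was thus seen in a minority of injured cells. Lpl was seen in 12.9% of injured and 43.3% of uninjured cells, Meox2 in 15.1% and 34.8%, and Pparg in 3.66% and 7.72%. Gpihbp1 was seen in 55.6% of injured cells (51.0 to 60.2) and 80.8% of uninjured cells (79.3 to 82.3), and Fabp5 in 39.0% and 68.3%. Fabp4 remained detectable in nearly every cell, at 89.4% of injured (86.3 to 92.1) and 99.8% of uninjured cells (99.6 to 99.9). At full depth, with medians of 5902 UMIs in injured and 2803 UMIs in uninjured cells, the Cd36 shares were 52.6% and 95.5%.

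Counted per cell at 1500 UMIs, a median of 2 of the 10 genes was detected in injured and 6 in uninjured endothelial-like cells. At least 5 of them were detected in 14.0% of injured and 75.1% of uninjured cells. The injured cells were also more uneven. Fabp4 had a median of 25.3 UMIs per 10000 in injured cells, with 5.17 at the 10th and 171 at the 90th percentile, and a median of 207 in uninjured cells, with 103 and 336 at these percentiles. The injured cells with the most Fabp4 therefore lay within the uninjured range. For Cd36 the median was 0.721 UMIs per 10000 with 10.5 at the 90th percentile in injured cells and 16.7 with 30.8 in uninjured cells. Across cells of the same library, log-scaled Cd36 and Fabp4 had a Pearson correlation of 0.69 over 464 injured and 0.44 over 2655 uninjured cells. These were the highest values among the 45 pairs of the 10 genes in each library, whose cells share a library, a depth range and a sum to which they were scaled.

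The endothelial-like cells of each library were then divided into sub-clusters, made without the 10 genes and without the genes of the pathway lists below, and named from capillary, arterial and venous markers. Capillary-like cells made up 77 of the 464 injured cells (16.6%) and 1843 of the 2655 uninjured cells (69.4%). Venous-like cells numbered 50 in the injured and 356 in the uninjured library, and arterial-like cells 43 and 456. The other 294 injured cells (63.4%) lay in 5 sub-clusters that carried too few subtype markers to be named, and no uninjured cell did. Apln and Pgf, which mark endothelium that sprouts, together had 2269 CPM in the unnamed injured cells, against 31.2 CPM in injured capillary-like and 22.7 CPM in uninjured capillary-like cells.

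Within capillary-like cells the difference between the libraries was smaller than in the whole class for 8 of the 9 lower genes, and for Pparg the interval included the 2.93-fold of the whole class. Of the 10 genes, 3 were at least 2-fold lower and 0 at least 2-fold higher there, against 8.97% and 6.13% of 10068 genes, and the median log2 ratio was -0.72 for the 10 genes and -0.01 for all genes. C1qtnf9 had 491 CPM in injured and 1275 CPM in uninjured capillary-like cells, 2.60-fold lower (2.27 to 2.98). Aqp7 had 147 CPM in injured and 356 CPM in uninjured capillary-like cells, 2.42-fold lower (1.89 to 3.14). Pparg, with 24.5 CPM in injured and 58.8 CPM in uninjured capillary-like cells, was 2.40-fold lower (1.32 to 4.85). The intervals of these 3 genes overlap, so their order is not set.

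The other genes stayed within 2-fold in capillary-like cells. Cd36 had 1071 CPM in injured and 1895 CPM in uninjured capillary-like cells, 1.77-fold lower (1.62 to 1.94), and Gpihbp1 had 1452 and 2534 CPM, 1.75-fold lower (1.61 to 1.89). Lpl had 393 CPM in injured and 607 CPM in uninjured capillary-like cells, 1.55-fold lower (1.33 to 1.81), and Meox2 had 234 and 325 CPM, 1.39-fold lower (1.14 to 1.70). Fabp4 had 17268 CPM in injured and 22218 CPM in uninjured capillary-like cells, 1.29-fold lower (1.26 to 1.32). In 2 genes the direction was opposite to that of the whole class. Fabp5 had 1526 CPM in injured and 1154 CPM in uninjured capillary-like cells, a ratio of 1.32 (1.22 to 1.43), and Angptl4 had 11.2 and 14.0 CPM, a ratio of 0.80 (0.25 to 1.94) whose interval spans equal levels. Of the 8 capillary markers themselves, 6 were at least 2-fold lower in injured than in uninjured capillary-like cells and 7 in the whole class. Because the name needs those markers, an injured capillary cell with few of them would stand among the unnamed cells, so capillary origin and marker level cannot be told apart.

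**Figure D2:**
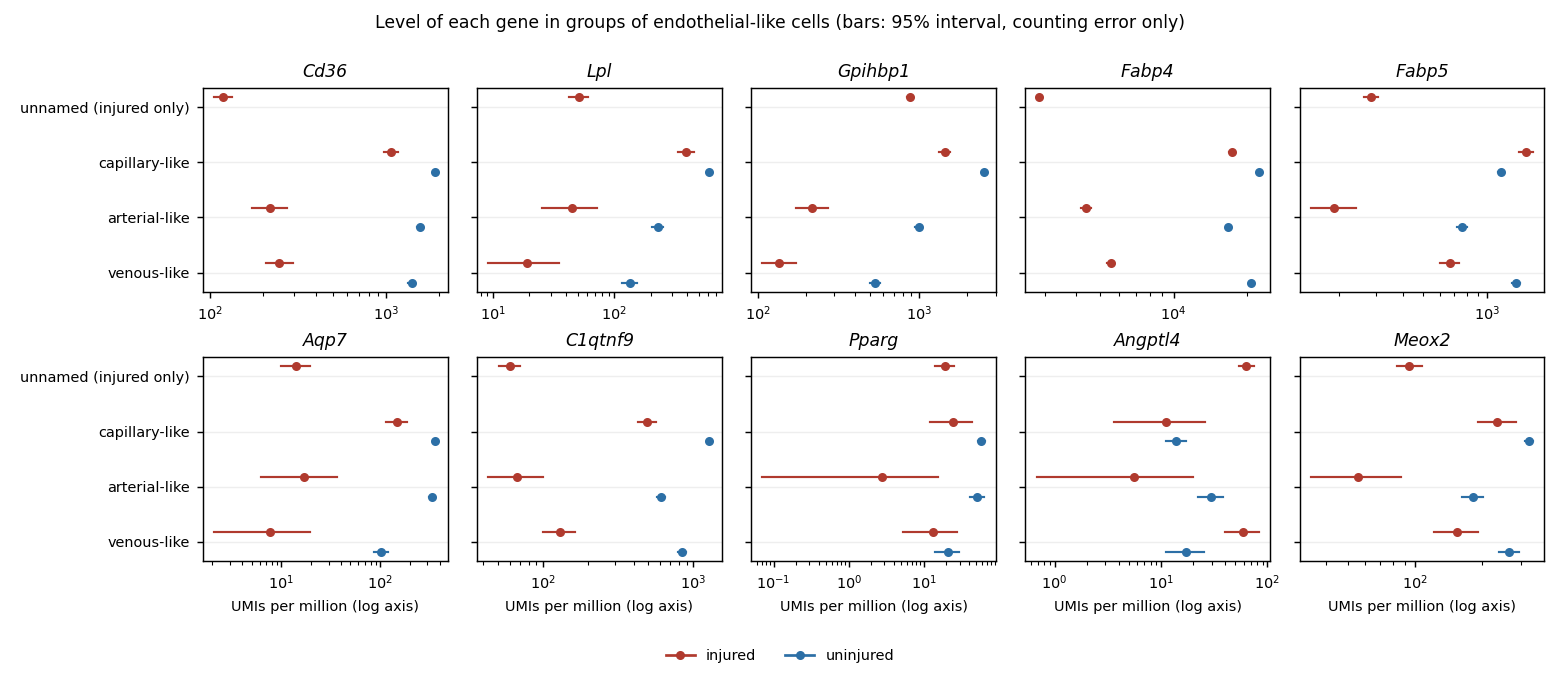
Level of each gene in CPM (log x axis) in the unnamed, capillary-like, arterial-like and venous-like cells of the injured and uninjured libraries, with 95% intervals for counting error. Injured capillary-like cells lie within 2-fold of the uninjured ones for all genes but C1qtnf9, Aqp7 and Pparg. Examples are Fabp4 at 17268 and 22218 CPM and Cd36 at 1071 and 1895 CPM. The unnamed injured cells lie far below the injured capillary-like cells for Cd36, at 119 against 1071 CPM, and above them for Angptl4, at 63.4 against 11.2 CPM.

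In venous-like cells 7 of the 10 genes were at least 2-fold lower and 1 at least 2-fold higher, against 19.7% and 11.1% of 7815 genes. The median log2 ratio of -1.94 was close to the -1.80 of the whole class, but single genes departed from it in both directions. Gpihbp1 was 3.90-fold lower (3.06 to 5.05), against 2.45-fold in the whole class, and Meox2 1.72-fold lower (1.35 to 2.21), against 2.49-fold. Fabp4 had 5532 CPM in injured and 20730.4 CPM in uninjured venous-like cells, 3.75-fold lower (3.61 to 3.89), and Cd36 had 249 and 1394 CPM, 5.60-fold lower (4.69 to 6.74). Angptl4 had 58.9 CPM in injured and 17.2 CPM in uninjured venous-like cells, a ratio of 3.42 (1.94 to 6.09). At 1500 UMIs, 0 of 50 injured venous-like cells had an Angptl4 UMI, which allows a share of up to 7.11%, and 1.69% of uninjured ones (0.621 to 3.63) did. The higher level was thus not seen in these shares, but their intervals overlap and set no direction. Arterial-like cells, at 43 injured cells, were under the 50-cell minimum for a ratio, and Fabp4 had 4398 CPM in the injured and 16677 CPM in the uninjured ones.

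Inside the injured library the 10 genes differed in how far the unnamed cells lay from the capillary-like ones. Gpihbp1 had 887 CPM in unnamed and 1452 CPM in capillary-like injured cells, a ratio of 0.61 (0.56 to 0.67), and 62.2% of the unnamed cells (56.4 to 67.8) had a UMI of it at 1500 UMIs. Cd36 had 119 CPM in unnamed and 1071 CPM in capillary-like injured cells, a ratio of 0.11 (0.10 to 0.13), and 12.2% of the unnamed cells had a UMI. Fabp4 had 2823 CPM in unnamed and 17268 CPM in capillary-like injured cells, a ratio of 0.16 (0.16 to 0.17). Gpihbp1 was thus detected in most of the unnamed cells and Cd36 in few. Sub-cluster 2, led by S100a8, held 175 of the 295 Cd36 UMIs and 3821 of the 6990 Fabp4 UMIs of the unnamed cells. Lpl, Aqp7, C1qtnf9 and Fabp5 had ratios of unnamed over capillary-like injured cells between 0.10 and 0.19, and Meox2 of 0.40 (0.32 to 0.51). Pparg, at 19.4 and 24.5 CPM, had an interval that spans equal levels (0.40 to 1.69). Angptl4 went the other way, with 63.4 CPM in unnamed and 11.2 CPM in capillary-like injured cells, a ratio of 5.69 (2.39 to 17.7). At 1500 UMIs its level was 36.3 CPM in unnamed and 17.3 CPM in capillary-like injured cells, and the shares of cells with a UMI, 5.44% (3.14 to 8.69) and 2.60% (0.316 to 9.07), had overlapping intervals. Most of these differences were not particular to the unnamed cells. Injured arterial-like and venous-like cells had ratios over capillary-like ones of 0.21 and 0.23 for Cd36, 0.11 and 0.048 for Lpl and 0.11 and 0.052 for Aqp7. For Angptl4 they were 0.50 (0.048 to 3.06) and 5.28 (2.03 to 17.4). Gpihbp1 set the unnamed cells apart, with 0.15 in arterial-like and 0.094 in venous-like cells.

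The unnamed sub-clusters differed in their leading genes. In sub-cluster 3, which Ankrd1, Tagln and Acta2 led, Gpihbp1 reached 1284 CPM while Cd36 had 14.5 CPM, the lowest of all injured sub-clusters. The 10 pericyte and smooth muscle markers summed to 1730 CPM there, with 6 of them at 0, and to 209 to 812 CPM in the other injured sub-clusters, and their part in these levels was not tested. In sub-cluster 1, led by Pgf and Bmp2, Angptl4 had its highest level at 96.6 CPM, and 8.99% of its 89 cells had a UMI at 1500 UMIs. Sub-cluster 2, with 77 cells, was led by S100a8, Il1b and Tnf, genes of myeloid cells. Without it, the counts stayed at 9 lower and 1 higher and the median log2 ratio was -1.97. Without it the ratios of unnamed over capillary-like injured cells were 0.059 (0.048 to 0.072) for Cd36, 0.096 (0.092 to 0.10) for Fabp4, 0.043 (0.021 to 0.080) for Aqp7 and 0.24 (0.19 to 0.32) for Meox2, and 0.58 (0.53 to 0.64) for Gpihbp1. The 2 capillary-like injured sub-clusters were not alike either: sub-cluster 5, with 44 cells, had 1234 CPM of Cd36 and sub-cluster 9, with 33 cells, 811 CPM.

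**Figure D3:**
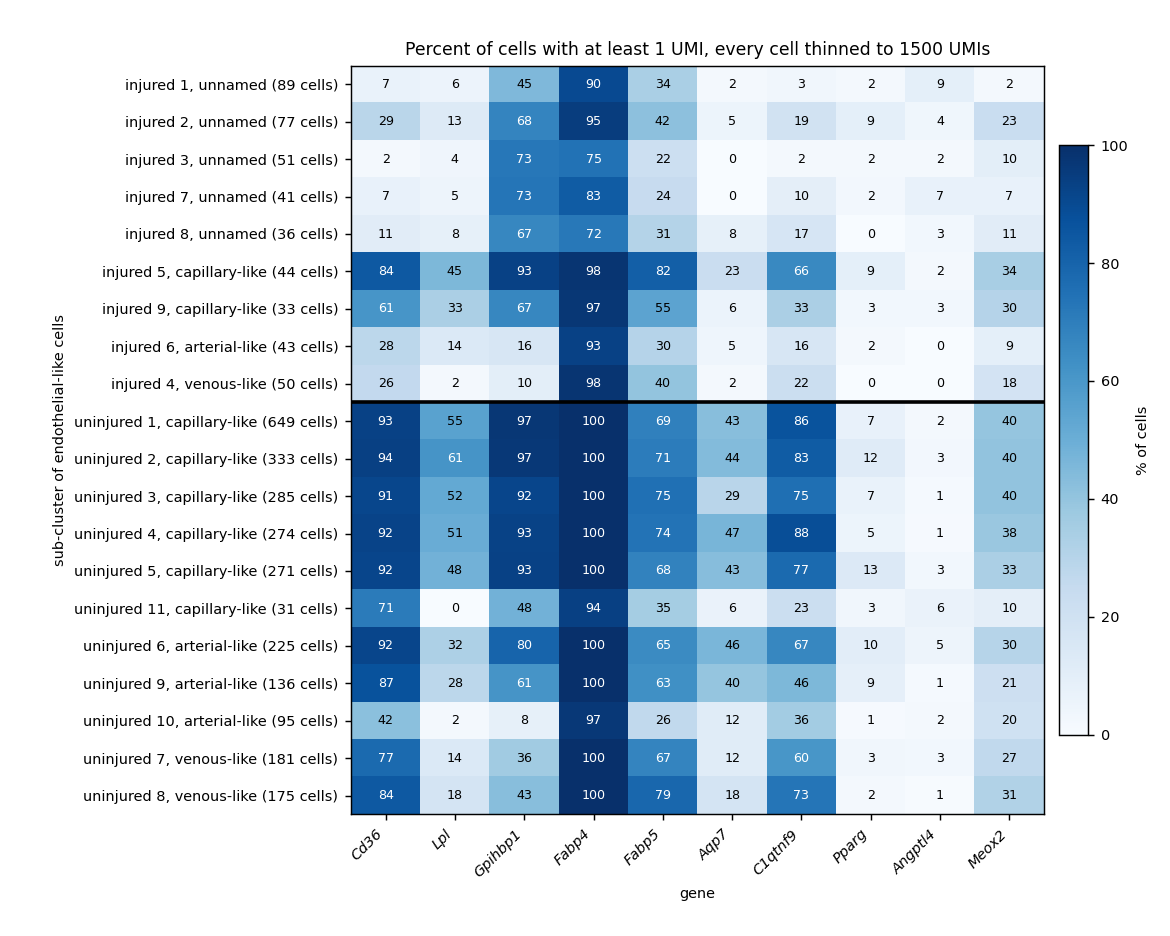
Percent of cells with at least 1 UMI of each gene (columns) in every endothelial-like sub-cluster (rows; injured above the black line, uninjured below), with each cell thinned to 1500 UMIs. Unnamed injured sub-clusters show Gpihbp1 in 44.9% to 73.2% of cells and Cd36 in 1.96% to 28.6%, and uninjured capillary-like sub-clusters 1 to 5 show Cd36 in over 90% of cells.

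In the uninjured library the genes divided unevenly over vessel types. Gpihbp1 had 998 CPM in arterial-like and 534 CPM in venous-like cells, against 2534 CPM in capillary-like cells, so that it was 2.54-fold (2.42 to 2.67) and 4.75-fold lower (4.41 to 5.12). Lpl followed the same order, with 228 CPM in arterial-like and 135 CPM in venous-like cells against 607 CPM in capillary-like cells. Aqp7 had 335 CPM in arterial-like and 103 CPM in venous-like cells against 356 CPM in capillary-like cells, and the interval of the arterial ratio of 0.94 (0.86 to 1.03) includes equal levels. Fabp4 and Cd36 varied least. Fabp4 had 16677 CPM in arterial-like and 20730.4 CPM in venous-like against 22218 CPM in capillary-like cells. Cd36 had 1563 CPM in arterial-like and 1394 CPM in venous-like against 1895 CPM in capillary-like cells. Fabp5 was highest in venous-like cells at 1369 CPM, with 757 CPM in arterial-like and 1154 CPM in capillary-like cells. Within the arterial-like cells, sub-cluster 10, which Mgp and Gkn3 led, had 50.4 CPM of Gpihbp1 and 20.7 CPM of Lpl. The sub-clusters were named from other genes, but they shared 1 library.

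Outside the endothelium the 10 genes fell into 3 patterns. Over named classes of at least 50 cells, endothelial-like cells had the highest level of 5 of the 10 genes among 6 classes in the injured library (Gpihbp1, Fabp4, Aqp7, C1qtnf9 and Meox2) and of 8 among 8 classes in the uninjured library, where the exceptions were Lpl and Angptl4. Of all genes with at least 20 UMIs over these classes, 24.0% of 12722 in the injured and 15.2% of 13068 in the uninjured library were highest there. The uninjured interval of Pparg overlapped that of lymphatic endothelial-like cells, at 51.6 CPM in endothelial-like and 25.8 CPM in lymphatic cells. The first pattern was that of Gpihbp1, Fabp4, Aqp7 and C1qtnf9. Fabp4 had 21.9 to 72.9 CPM in the 5 other injured classes and 701 to 1091 CPM in the 7 other uninjured classes. In the uninjured library the medians over other classes were 3.82% to 4.68% of the endothelial level for these 4 genes, and 4.91% for Cd36, 5.33% for Fabp5 and 5.91% for Meox2. In the injured library they were 0% to 0.855% for the 4 genes. Free RNA taken up in droplets can give such low levels, and its part was not tested. Lymphatic endothelial-like cells were an exception, with 526 CPM of Gpihbp1 in 53 uninjured cells. At 1500 UMIs, Fabp4 was seen in 2.21% to 6.45% of cells of the other injured classes and in 32.6% to 44.6% of those of the other uninjured classes.

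By the 2-fold rule, 2 of 7 measured genes were lower and 1 higher in monocyte and macrophage-like cells, against 26.1% and 7.97% of 10298 genes. In dendritic-like cells 5 of 7 were lower and 1 higher, against 11.7% and 10.3% of 6455 genes. Fibro-adipogenic-like cells had 7 of 9 lower and 1 higher, against 29.0% and 14.9% of 11382 genes, and tenocyte-like cells 7 of 9 and 1, against 20.8% and 9.96% of 9707 genes. In glial-like cells 4 of 7 were lower and 0 higher, against 27.5% and 13.4% of 6405 genes. Many of these lower genes had low levels in uninjured cells of the class as well. An uninjured level of at most 10% of the uninjured endothelial level, a limit chosen after seeing the data, held for 2 of the 2 lower genes in monocyte and macrophage-like cells, 4 of 5 in dendritic-like, 5 of 7 in fibro-adipogenic-like, 5 of 7 in tenocyte-like and 4 of 4 in glial-like cells. These were Gpihbp1 and Fabp4 in each class, with Cd36 and C1qtnf9 in all but the monocyte and macrophage-like cells and Aqp7 in the fibro-adipogenic-like and tenocyte-like cells. The part of free RNA in these counts was not tested. The clusters with mixed pericyte, smooth muscle and endothelial markers had 7 of 10 lower and 1 higher, against 16.2% and 8.41% of 9453 genes, with 2512 CPM of Fabp4 in injured and 9061 CPM in uninjured cells, between the levels of endothelial-like and other cells.

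**Figure D4:**
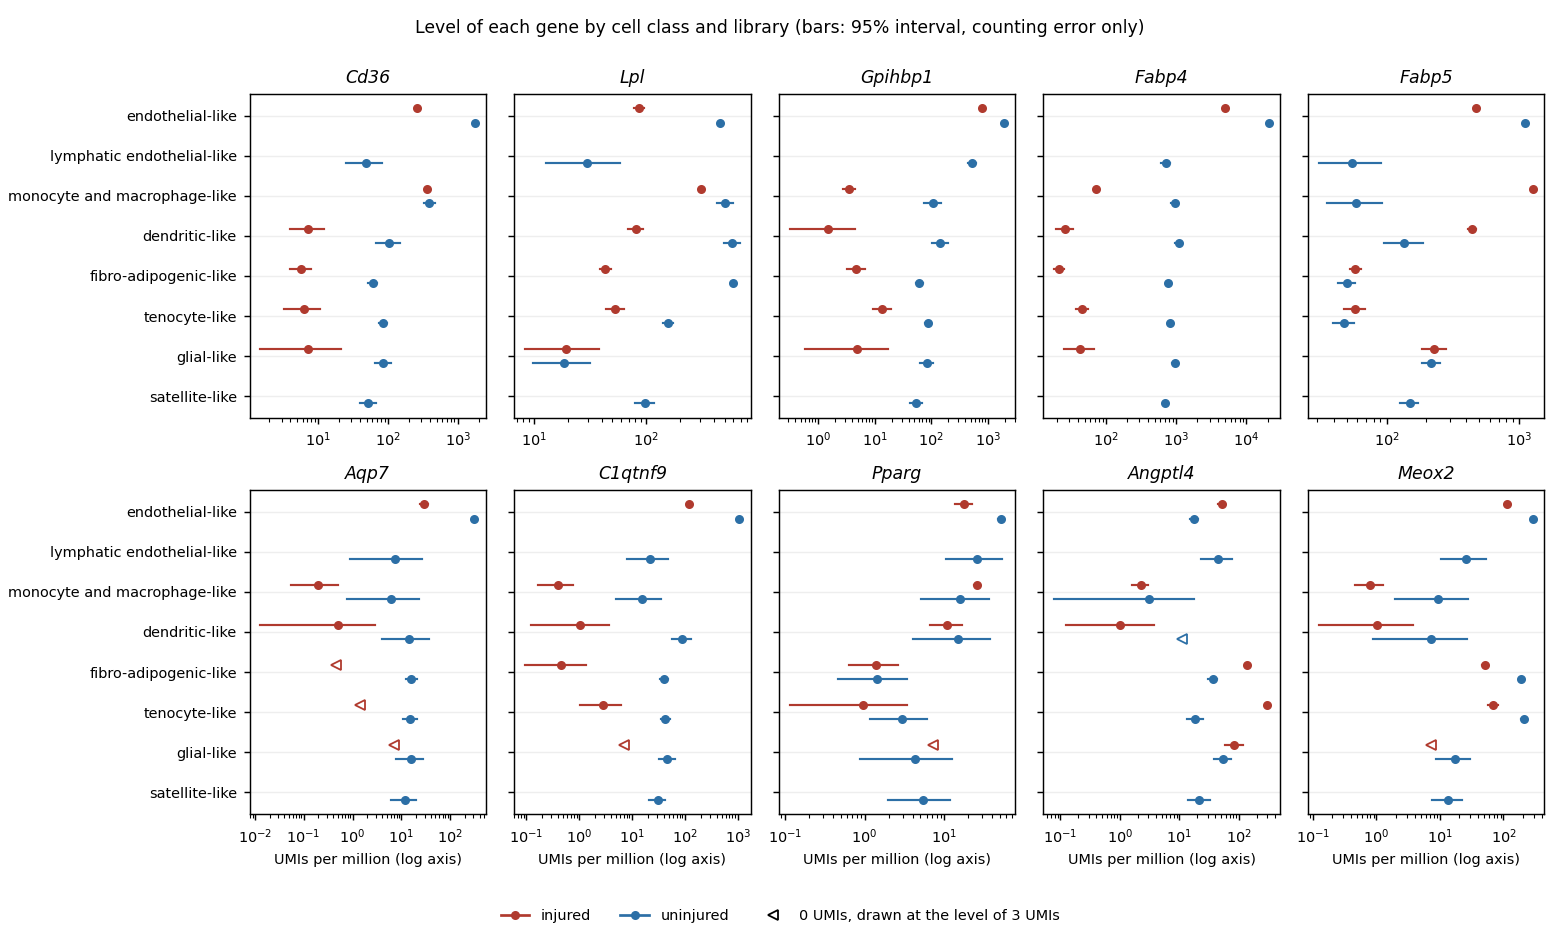
Level of each gene in CPM (log x axis) in named cell classes with at least 50 cells, injured above uninjured, with 95% intervals for counting error; open triangles stand for 0 UMIs and are drawn at the level of 3 UMIs. Endothelial-like cells are highest for Gpihbp1, Fabp4, Aqp7, C1qtnf9 and Meox2 in both libraries. Monocyte and macrophage-like cells have the highest injured level of Fabp5 among these whole classes, at 1270 CPM.

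The second pattern was that of genes shared with macrophages, which take up lipid from dead cells. Among the injured classes, monocyte and macrophage-like cells had the highest level of Cd36 at 367 CPM (359 to 376), Lpl at 309 CPM (301 to 316), Fabp5 at 1270 CPM (1254 to 1285) and Pparg at 25.9 CPM (23.8 to 28.2). Each lay above the interval of the whole endothelial-like class. The injured capillary-like part of that class had more Cd36, at 1071 CPM (977 to 1171), and more Lpl, at 393 CPM (337 to 455). It also had more Fabp5, at 1526 CPM (1414 to 1645). Its Pparg interval (12.2 to 43.9) included the macrophage level. Fabp5 had 1270 CPM in 2732 injured and 59.1 CPM in 88 uninjured cells of the monocyte and macrophage-like class, a ratio of 21.5 (13.8 to 35.7). The uninjured value rests on 19 UMIs, and cluster 22 held 72 of those 88 cells but 47 of the injured ones. Cd36 had 367 CPM in injured and 392 CPM in uninjured cells of the class, with an interval of the ratio from 0.79 to 1.13, and Lpl had 309 and 507 CPM, 1.64-fold lower (1.40 to 1.92). Dendritic-like cells also had more Fabp5, at 440 CPM in injured and 136 CPM in uninjured cells, a ratio of 3.25 (2.34 to 4.64). Lpl had 80.7 CPM in injured and 586 CPM in uninjured dendritic-like cells, 7.26-fold lower (5.79 to 9.10).

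The third pattern was that of genes of connective tissue cells. Angptl4 had 296 CPM in injured and 18.5 CPM in uninjured tenocyte-like cells, a ratio of 15.9 (11.7 to 22.2), and 137 CPM in injured and 36.0 CPM in uninjured fibro-adipogenic-like cells, a ratio of 3.82 (3.17 to 4.65). Both were above the 51.2 CPM of injured endothelial-like cells, which ranked 4th of 6 classes. Angptl4 was seen at 1500 UMIs in 28.0% of injured and 2.46% of uninjured tenocyte-like cells. Lpl had 43.3 CPM in injured and 593 CPM in uninjured fibro-adipogenic-like cells, 13.7-fold lower (12.1 to 15.6), where the uninjured level was the highest of all classes and overlapped that of dendritic-like cells. Meox2 was not endothelial alone, with 68.8 CPM in injured and 208 CPM in uninjured tenocyte-like cells, 3.03-fold lower (2.51 to 3.67), and 51.6 and 189 CPM in fibro-adipogenic-like cells, 3.67-fold lower (3.22 to 4.20). The connective tissue clusters of the libraries were nearly disjoint, with 397 of 407 injured fibro-adipogenic-like cells in cluster 12 and 156 of 168 injured tenocyte-like cells in cluster 20, neither of which held an uninjured cell.

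Other genes of the same pathways were counted by list in endothelial-like cells. By the same rule 19.9% of all 11256 genes of the class were lower and 10.7% higher. List counts such as 3 of 12 or 2 of 10 lower genes lie near that share. Of 20 measured genes of fatty acid oxidation, 1 passed 2-fold downwards and 0 upwards, and their median log2 ratio was -0.23, against -0.19 for all genes. The lower one was the thiolase Acaa2, with 41.2 CPM in injured and 89.4 CPM in uninjured cells, 2.17-fold lower (1.83 to 2.59). Of 12 genes of uptake and activation, 3 were lower, and the median was 0.09. Scarb1, a lipoprotein receptor, had 115 CPM in injured and 396 CPM in uninjured cells, 3.43-fold lower (3.11 to 3.80), the acyl-CoA synthetase Acsl1 was 2.44-fold lower (1.60 to 3.85) and Vldlr, from 4 and 52 UMIs, 5.42-fold lower (1.99 to 20.6). Of 9 lipase assembly and regulator genes 1, the protease Pcsk6, was lower, at 1.84 CPM in injured and 5.03 CPM in uninjured cells, and 0 were higher.

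Of 10 lipid droplet genes 2 were lower and 2 higher, against 19.9% and 10.7% of all 11256 genes, so the lower count lies near the share of all genes. The lipases Mgll, with 314 CPM in injured and 748 CPM in uninjured cells, and Lipe, with 30.2 and 99.3 CPM, were 2.38-fold (2.24 to 2.53) and 3.29-fold lower (2.71 to 4.03). G0s2, an inhibitor of lipolysis, had 21.8 CPM in injured and 2.63 CPM in uninjured cells, a ratio of 8.30 (5.22 to 13.7). Neutrophils are also known for G0s2, and the 7 neutrophil markers summed to 317 CPM in injured and 6.78 CPM in uninjured endothelial-like cells. Their part in this ratio was not tested. The acyltransferase Dgat2 was higher too, from 13 and 9 UMIs.

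The shares of all 11256 genes that stand beside the next counts are again 19.9% lower and 10.7% higher. Of 6 glycerol handling genes 3 were lower and 1 higher. Aqp1, a water channel of capillaries, had 1176 CPM in injured and 5683 CPM in uninjured cells, 4.83-fold lower (4.69 to 4.98), Gpd1l was 2.22-fold lower (1.50 to 3.37) and Lpin1, from 6 and 82 UMIs, 5.69-fold lower (2.51 to 16.0). The acyltransferase Agpat2 had 18.6 CPM in injured and 5.58 CPM in uninjured cells. Of 10 partners of Pparg and Meox2 2 were lower, near the share of all genes, and 0 higher. Tcf15, which is known in mice to act with Meox2 in the endothelium of heart, had 213 CPM in injured and 1607 CPM in uninjured cells, 7.53-fold lower (7.01 to 8.09), and the retinoid X receptor Rxra was 2.62-fold lower (1.89 to 3.72). In capillary-like cells Tcf15 had 781 CPM in injured and 1978 CPM in uninjured cells, whereas Rxra stayed within 2-fold, at 26.8 and 28.7 CPM. Of 7 C1q and TNF related genes 3 were lower, C1qtnf1, C1qtnf2 and C1qtnf4, each with at most 5 injured UMIs. Of 14 immediate early genes, which respond to tissue digestion, 6 were lower and 0 higher. Their median was -0.85, and the largest difference was that of Btg2, at 289 CPM in injured and 1198 CPM in uninjured cells. Jund and Egr1 followed, at 3.48-fold (3.14 to 3.87) and 2.82-fold lower (2.68 to 2.97).

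Over 14 class-by-library sums of at least 50 cells, the genes most like the mean pattern of Cd36, Fabp4 and Gpihbp1 among 11977 genes were Flt1 (Pearson correlation 0.971), Ptprb (0.950), Mkl2 (0.941), Tcf15 (0.940) and Adgrf5 (0.940). Ptprb and Adgrf5 also served as naming markers, and the 14 sums share 2 libraries. Of the 7 other genes, C1qtnf9 (0.911) and Aqp7 (0.877) came closest, and Fabp5 (0.285) and Angptl4 (-0.309) were least alike.

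RNA of other cells was present in the endothelial-like class. The 12 monocyte and macrophage markers summed to 232 CPM in injured and 36.9 CPM in uninjured endothelial-like cells, and to 21306 and 30373 CPM in their own class. The 10 pericyte and smooth muscle markers summed to 583 CPM in injured and 449 CPM in uninjured endothelial-like cells, with 1 and 0 of them at 0. The 10 muscle fibre markers summed to 157 and 599.6 CPM and the 6 erythroid markers to 2046 and 391 CPM. Of 8 adipocyte markers, 7 were at 0 in injured and 5 in uninjured endothelial-like cells, Adipoq among them in both, and they summed to 0.788 and 1.20 CPM, although Fabp4, Cd36, Lpl, Aqp7 and Pparg are also known from fat cells. With totals that leave out haemoglobin, mitochondrial and muscle fibre genes, the 10 genes kept 9 lower and 1 higher, and without barcodes found in both libraries likewise.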

How the data were processed

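Single cells of 1 injured and 1 uninjured tibialis anterior were captured with a droplet 3′ kit, per the labels' protocols. The authors deposited raw UMI counts per gene and barcode, made with Cell Ranger 2.1.1 on mm10 per the submitters' processing notes, with barcodes already selected. Groups came from the sample titles. Barcodes with under 200 genes (64 injured, 178 uninjured) or over 20% mitochondrial UMIs (4 and 18) were removed. Scrublet's automatic threshold marked 1 barcode per library and so failed, and the highest scores, 0.8% per 1000 barcodes (161 and 249), were removed instead, an assumed rate. Deposited depth was 39014762 injured and 22994502 uninjured UMIs, with at least 3333 and 1843 per barcode.

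Cells were clustered together (scanpy 1.11.5, leidenalg 0.10.2, 2000 variable genes, 30 components, 15 neighbours, resolution 1, seed 0) without the 10 genes and the pathway genes, and clusters were named from 16 marker lists. A marker was present when at least 20% of cells had it at 2 times the median over clusters; 3 were needed, and a lineage reaching 70% of the leading share made a cluster mixed. Endothelial-like cells were sub-clustered in each library alone, with presence at 1.2 times the mean over sub-clusters; this rule was chosen after sub-clusters of both libraries together gave no capillary name. UMIs were summed per class and library. Levels have exact Poisson, shares Clopper-Pearson and ratios conditional binomial intervals at 95%. A gene was measured at 20 UMIs and called at 2-fold, a lower count under 3 being raised to 3 without passing equal rates. The ratios were also run on simulated data that held counting error alone, so this check says nothing of the spread between cells, animals or libraries. Other settings used edgeR 4.0.16 and DESeq2 1.42.0 factors, thinning to 1500 UMIs, other clusterings and other cell sets. Named genes were all 10 genes, up to 3 per direction and pathway list with the largest ratios, and the 5 genes most alike over class sums (log2 of CPM plus 10, at least 100 UMIs). The genes and lists were chosen with earlier results of these data known. One result of the pathway lists is not reported here.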

Additional observations from a re-analysis of the deposited data

Results flagged for a closer look

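Fabp5 differed in opposite directions between cell classes. Its log2 ratio of injured over uninjured was -1.22 in endothelial-like cells, 1.7 in dendritic-like cells and 4.43 in monocyte and macrophage-like cells, and with 1 library per group the difference between these ratios was not tested. Within capillary-like cells the log2 ratio was 0.40, the direction of the myeloid classes. The 12 monocyte and macrophage markers summed to 232 CPM in injured and 36.9 CPM in uninjured endothelial-like cells, and their part in the Fabp5 level was not tested.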

How the results depend on the processing

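Over 16 other settings, the count of genes at least 2-fold lower in endothelial-like cells was 9 in 15 and 3 in capillary-like cells alone. The count of genes at least 2-fold higher was 0 with every cell thinned to 1500 UMIs and 0 in capillary-like cells, and the median log2 ratio was -1.54 and -0.72 in these settings; the cause was not tested. In the 15 settings other than capillary-like cells the median lay between -1.97 and -1.54. The genes highest in endothelial-like cells numbered 5 to 6 in the injured and 8 in the uninjured library over 13 settings. Of 170 values of single genes, 114 stayed within the interval of the value given, 54 moved outside it with the same direction, and 2 reversed, both in capillary-like cells: Fabp5 at 0.40 and Angptl4 at -0.32. Angptl4 lay between 0.69 and 1.69 in the other settings. Settings without 1 sub-cluster or the shared barcodes were added after seeing the data. No paired analysis was possible because each group has 1 library. Depth limits Pparg, Aqp7 and Angptl4 most, at 67, 111 and 195 injured UMIs in the class.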
